A study of Arvicanthis niloticus with 5 samples.

Results

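A set of 8 genes of the myelin sheath was measured in RNA of the Nile rat eye: Mbp, Mog, Mag, Cnp, Mobp, Mal, Omg and Pmp22. They were chosen by symbol, in any species column of the deposited ortholog table and without regard to case, and all 8 were found, on 12 of the 124439 transcripts. They stand among 13982 genes that carried a symbol. The Nile rat (Arvicanthis niloticus) is a day-active African rodent. The labels list 5 samples of eye tissue, numbered 1, 3, 5, 7 and 9, all of them wild type and in 1 group, with no age or treatment given. Per the labels' protocols the library was pooled from the RNA of 5 rats, and the deposited table holds 1 value per transcript, with no column per sample. No source used here says whether this column sums the 5 samples, and it was treated as 1 pool. There is thus no comparison between animals, no replicate error and no p-value. Levels are in FPKM, the fragments of a transcript divided by its length in kilobases and scaled to 1000000 mapped fragments, so genes are compared per length, and the level of a gene is the sum over its transcripts. Brackets hold 95% intervals, which cover counting error alone: fragments amplified by PCR are not independent molecules, and neither variation between animals nor the division of fragments between transcripts is included.

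Myelin is a stack of glial membrane wrapped around axons. In the optic nerve and brain it is made by oligodendrocytes, and in peripheral nerves, such as those to the cornea, iris and eye muscles, by Schwann cells. In most mammals the axons of retinal ganglion cells run bare across the retina and acquire myelin behind the eye, so an eye taken with a stump of nerve carries central myelin and the small nerves around the globe carry peripheral myelin. The members were separated accordingly. Mog, Mobp and Omg belong to central myelin, Mbp, Mag, Cnp and Mal to both kinds, and Pmp22 to peripheral myelin. Several have other sources: Mal is also made by many epithelia, Pmp22 by fibroblasts and epithelia, and Omg by neurons.

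All 8 genes exceeded 1 FPKM, a mark that 93.2% of named genes reached. At least 10 FPKM was reached by 5 of the 8, against 34.0% of all named genes. The levels spread over a 33.8-fold range, from 5.92 to 199.97 FPKM. The median of the 8 was 17.3 FPKM, against 6.50 FPKM over all named genes, and 7 of the 8 lay above that median. The members held 0.163% of the FPKM of named genes, and 0.183% [0.182 to 0.185, Wilson] of their fragments. Mal alone accounted for 49.7% of the FPKM of the 8 genes and Mbp for 29.3%.

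**Figure D1:**
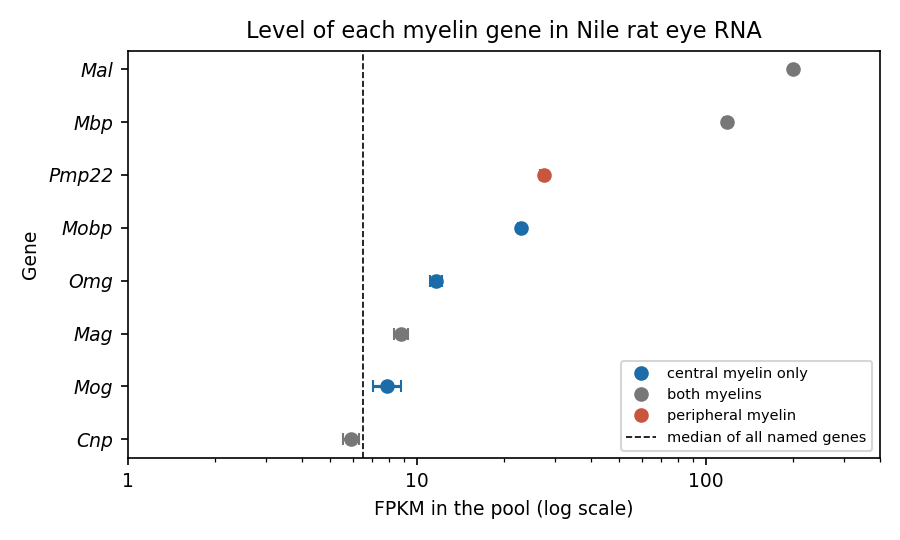
Level of each of the 8 genes in FPKM (log scale), with 95% counting intervals as horizontal bars, colored by the kind of myelin the gene belongs to, and the median of all named genes (6.50 FPKM) as a dashed line. Mal and Mbp stand above 100 FPKM, and Cnp alone lies below the dashed line.

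In order of level, the genes were Mal, Mbp, Pmp22, Mobp, Omg, Mag, Mog and Cnp. Neighbors in this order differed by more than their counting error, except Mag and Mog: the level of Mag was 1.12-fold that of Mog [0.987 to 1.27]. The place of Omg in the order depended on how its 2 transcripts were combined, as described with that gene.

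The most abundant shared gene was Mal, a small membrane protein with several membrane-spanning segments that sorts lipids and proteins to the myelin membrane and to the apical surface of epithelial cells. Mal stood at 199.97 FPKM [198 to 202], on a single transcript of 2339 nt with 30388 estimated fragments, named alike in mouse, rat and human. This placed it above 99.1% of named genes and 1.69-fold [1.66 to 1.73] above Mbp. Its paralogs were lower. Mal2, known from polarized epithelia, was at 42.1 FPKM, so that Mal was 4.76-fold [4.64 to 4.88] above it, and Mall was at 8.23 FPKM. Epithelial genes were present in the same pool. Of 11 listed epithelial symbols 10 were named, all 10 at 1 FPKM or more, against 93.2% of all named genes. Their median was 16.9 FPKM. They ranged from 3.71 FPKM for Tjp3 to 91.0 FPKM for the corneal keratin Krt12, and Krt18 and Krt14 stood at 40.9 and 40.2 FPKM. The part of epithelial cells in the level of Mal was not tested.

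Mbp, which encodes the basic protein that holds the inner faces of the membrane together in compact myelin, reached 118 FPKM [116 to 120], above 98.2% of named genes. Its transcripts were unequal. The shorter, of 1216 nt and named in mouse and rat, was at 108 FPKM [106 to 110], and the longer, of 2577 nt and named in all 3 species, was at 9.88 FPKM [9.41 to 10.4]. The shorter was 10.9-fold [10.4 to 11.5] above the longer and carried 83.8% of the fragments of the gene. The Mbp locus is known to produce classic Mbp and, from an earlier start, the longer golli forms. The files do not say which form either transcript represents. Both fragment counts were fractional, so fragments were divided between transcripts. As a length-weighted mean of the 2 transcripts, Mbp was at 41.4 FPKM.

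Mag and Cnp were far lower than Mbp. Mag, an adhesion molecule of the innermost myelin layer that faces the axon, was at 8.82 FPKM [8.36 to 9.30] on 1 transcript of 2397 nt. It lay 13.4-fold [12.6 to 14.2] below Mbp. Cnp, an enzyme of the cytoplasm-filled channels of the sheath, was the lowest member at 5.92 FPKM [5.57 to 6.29], which was 19.9-fold [18.7 to 21.2] below Mbp and above 46.5% of named genes. Its transcripts had nearly equal fragments, 590.9 on 2282 nt and 596.8 on 4746 nt, and therefore 3.99 and 1.94 FPKM. The longer was named in mouse alone, and the shorter carried the symbol Cnp1 in rat. With the highest transcript alone Cnp was at 3.99 FPKM, and as a length-weighted mean it was at 2.60 FPKM. Cnp remained the lowest of the 8 genes in both settings.

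**Figure D2:**
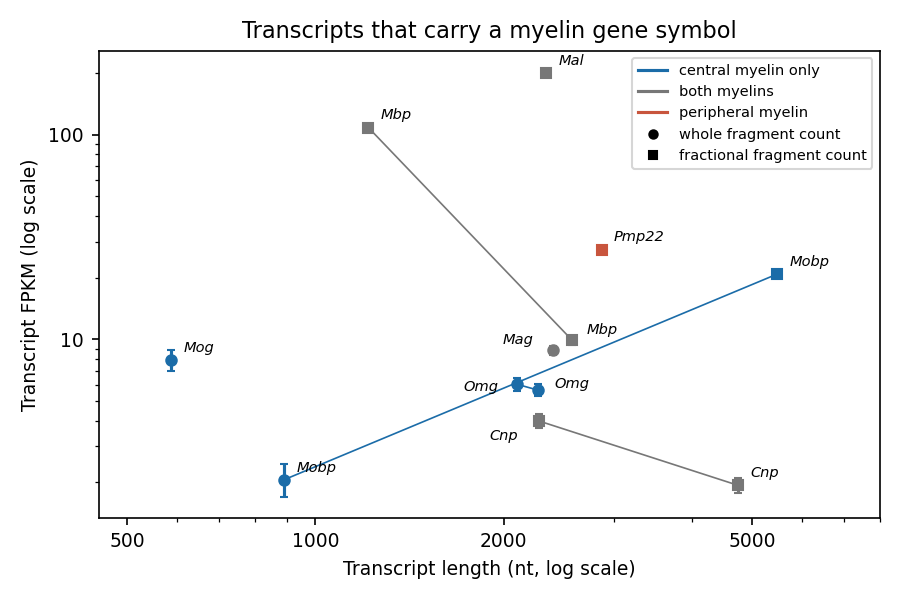
Transcript length (nt, log scale) against transcript FPKM (log scale) for the 12 transcripts, with 95% counting intervals as vertical bars and lines that join the transcripts of 1 gene. Squares mark fractional fragment counts, colors the kind of myelin. The shorter Mbp transcript is the higher of its pair, the longer Mobp transcript is the higher of its pair, and the Omg transcripts lie close together.

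The central genes spanned a 2.90-fold range. Mobp, a small basic protein of compact central myelin, was highest at 22.9 FPKM [22.3 to 23.5], above 85.1% of named genes. In Mobp the longer transcript dominated, the reverse of Mbp. A transcript of 5486 nt, the longest among the 12, was at 20.8 FPKM [20.4 to 21.3], and one of 890 nt, named in mouse alone, was at 2.06 FPKM [1.70 to 2.46].

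Mog, an immunoglobulin-like protein on the outermost surface of central myelin, was at 7.89 FPKM [7.03 to 8.84]. It rested on the fewest fragments of the 8 genes, 301 on a transcript of 587 nt named in all 3 species, and 8.38% of named transcripts were shorter. In the RefSeq annotation of the Nile rat, Mog overlaps Zfp57, a zinc finger gene that stood at 0.838 FPKM.

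Omg, a lipid-anchored glycoprotein of oligodendrocytes and neurons, summed to 11.7 FPKM [11.1 to 12.3]. A transcript of 2105 nt named in mouse and rat held 824 fragments at 6.03 FPKM, and one of 2269 nt named in human alone held 833 fragments at 5.65 FPKM. The levels differed by less than their counting error, at a ratio of 1.07 [0.968 to 1.17]. If both represent the same mRNA, the sum is too high. With the highest transcript alone Omg stood below Mag and Mog instead of above them (6.03 FPKM against 8.82 and 7.89 FPKM). Omg overlaps Nf1 in the RefSeq annotation, and strand is not stated. Nf1 was at 3.25 FPKM on transcripts of its own, and both Omg fragment counts were whole numbers.

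**Figure D3:**
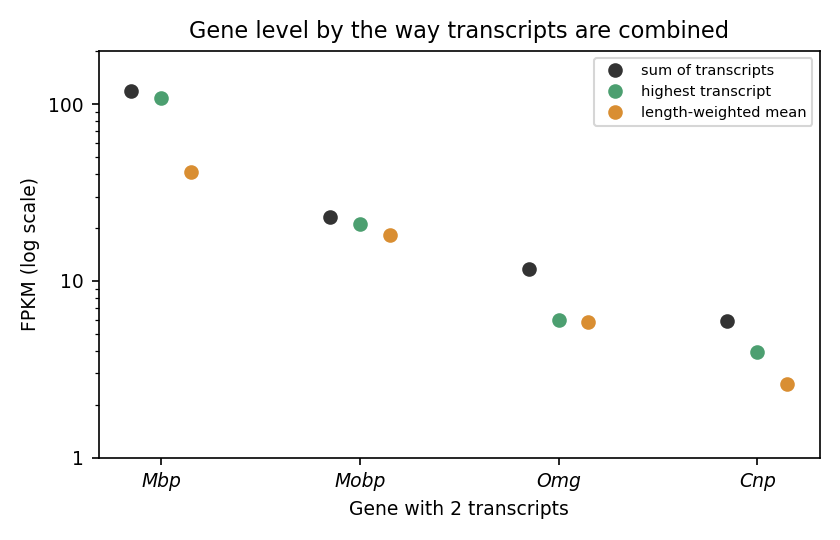
Level in FPKM (log scale) of the 4 genes with 2 transcripts, as the sum of transcripts, the highest transcript and the length-weighted mean. Mbp moved from 118 to 41.4 FPKM between the sum and the length-weighted mean, and Omg from 11.7 to 5.83 FPKM, while Mobp stayed between 18.2 and 22.9 FPKM.

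Pmp22, a membrane protein of compact peripheral myelin, was at 27.5 FPKM [26.7 to 28.2] on 1 transcript of 2870 nt, named alike in all 3 species. It was higher than each central member: 1.20-fold [1.15 to 1.25] above Mobp, 2.35-fold [2.22 to 2.49] above Omg and 3.48-fold [3.10 to 3.91] above Mog. Pmp22 kept this direction in all alternatives run for these ratios, but none of them could reverse it. Pmp22 and Mog had 1 transcript each, so the highest transcript and the length-weighted mean could only lower Mobp and Omg. The minimum of 500 nt and both naming alternatives left these genes unchanged, and a pseudocount of 1 FPKM cannot reverse a ratio. Of its paralogs, Emp1, an epithelial membrane protein, was 5.64-fold [5.45 to 5.83] above Pmp22 at 155 FPKM. Emp2 was at 24.6 FPKM and Emp3 at 8.64 FPKM. Over all paralogs of the members, 13 of 16 symbols were named and 9 of the 13 reached 10 FPKM, against 34.0% of all named genes. Their median was 18.5 FPKM, with a range from Lrrn1 at 4.60 FPKM to Emp1.

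Of 6 listed Schwann cell markers, 3 were named by a transcript, and all 3 were lower than Pmp22. Prx (periaxin), which links the Schwann cell membrane to its matrix, was at 4.26 FPKM, and Cdh19, a cadherin of Schwann cells, at 2.82 FPKM. The part of other cells of the eye, the lens included, in the levels of Prx and Cdh19 was not tested. No transcript carried the symbols Pmp2, Egr2 or Ncmap, and their levels were not analysed here. Fibroblast genes, from cells that also make Pmp22, were abundant in the pool: Dcn was at 603 FPKM, Lum at 62.2 FPKM and Col1a1 at 39.0 FPKM. The part of fibroblasts in the level of Pmp22 was not tested.

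Oligodendrocyte markers were also present. Of the 9 listed markers, 8 were named, all 8 at 1 FPKM or more, against 93.2% of all named genes. Their median was 12.3 FPKM, against 4.26 FPKM for the 3 named Schwann cell markers and 6.50 FPKM over all named genes. The oligodendrocyte markers include the members Mog and Mobp, and the Schwann cell markers include no member, so the medians are not independent of the members. Opalin, a glycoprotein of central myelin, was at 16.1 FPKM, Ermn (ermin) at 13.5 FPKM and Cldn11, the claudin of its radial seals, at 11.1 FPKM. Other markers of this list were lower: Mog at 7.89 FPKM, Olig1 at 3.65 FPKM and Olig2 at 1.01 FPKM. Genes listed as markers of both myelinating cell types were measured, at a mark of 1 FPKM that most named genes also reach. Since the whole eye was sampled, the level that the optic nerve contributed to the shared genes was not separable. In a bulk pool, the number of cells of a type and the RNA per cell cannot be told apart either.

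**Figure D4:**
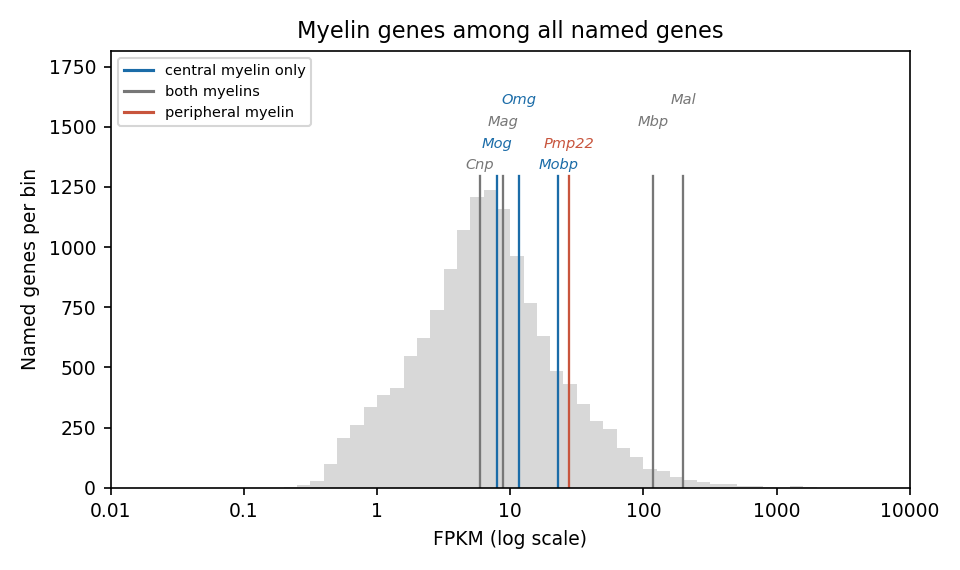
Histogram of the FPKM (log scale) of named genes with the 8 myelin genes as vertical lines, colored by the kind of myelin. Cnp, Mog and Mag lie near the peak of the histogram, and Mbp and Mal in its upper tail, which 2.21% of named genes reach at 100 FPKM or more.

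Other genes of oligodendrocytes and central myelin were measured in the same pool. Of 26 symbols 24 were named, all 24 at 1 FPKM or more and 12 at 10 FPKM or more (93.2% and 34.0% of all named genes), with a median of 9.59 FPKM. The highest was Cryab at 2894 FPKM, which is a lens crystallin as well as an oligodendrocyte gene, and the tetraspanin Cd9 was at 67.7 FPKM. The lowest was Adamts4, a matrix protease, at 1.20 FPKM. The peripheral myelin and Schwann cell list had 16 of 24 symbols named, all 16 at 1 FPKM or more and 5 at 10 FPKM or more, with a median of 4.06 FPKM. Among its highest genes, the calcium-binding protein S100b (85.9 FPKM) and N-cadherin (Cdh2, 24.1 FPKM) are also made by other cells of the eye or nerve. Drp2, a partner of periaxin, was lowest at 1.23 FPKM. The lists were not tested against each other.

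Transcription factors of the oligodendrocyte lineage had a lower median than the 8 myelin genes. Of 12 symbols 9 were named, 7 of them at 1 FPKM or more, against 93.2% of all named genes. Their median was 1.96 FPKM. Sox10, which directs both oligodendrocytes and Schwann cells, was highest at 10.1 FPKM [9.27 to 10.9], followed by Tcf7l2 at 6.43 FPKM. The oligodendrocyte factors Olig1 and Olig2 were at 3.65 FPKM and 1.01 FPKM, the latter on 52 fragments. Nkx6-2 was at 2.21 FPKM, St18 at 1.96 FPKM and Sox8 at 1.75 FPKM. Nkx2-2 was lowest at 0.485 FPKM, on 7 fragments. No transcript carried the symbol Myrf. Of the oligodendrocyte precursor list, 5 of 8 symbols were named and 4 reached 1 FPKM, with a median of 1.89 FPKM. Lhfpl3 (15.9 FPKM), Pcdh15 (8.20 FPKM), which photoreceptors also express, and Sox6 (1.89 FPKM) were highest. The proteoglycan Cspg4 was lowest at 0.975 FPKM, and the receptor Gpr17 was at 1.49 FPKM.

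Mag and Omg are also ligands that restrain axon growth, together with Rtn4 (Nogo), and share the receptor Rtn4r. All 3 ligands were measured. Rtn4 was at 9.32 FPKM [8.78 to 9.90] on 1 transcript of 1784 nt, and which form of Rtn4 it represents is not stated. The level did not differ from that of Mag beyond counting error (ratio 1.06 [0.976 to 1.14]). Omg was 1.25-fold [1.16 to 1.35] above Rtn4 as a sum, but below it with its highest transcript alone (6.03 FPKM). Rtn4r was at 5.57 FPKM [5.15 to 6.03], so that Mag was 1.58-fold [1.44 to 1.74] above its receptor. The related receptor Rtn4rl1 was the highest gene of the group at 14.8 FPKM, and Rtn4rl2 was at 5.23 FPKM. The co-receptors Ngfr, Lingo1 and Tnfrsf19 were at 7.45, 5.95 and 4.51 FPKM. In all, 9 of 11 symbols of this group, Mag and Omg included, were named. All 9 reached 1 FPKM and 2 reached 10 FPKM, against 93.2% and 34.0% of all named genes. Their median was 7.45 FPKM.

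**Figure D5:**
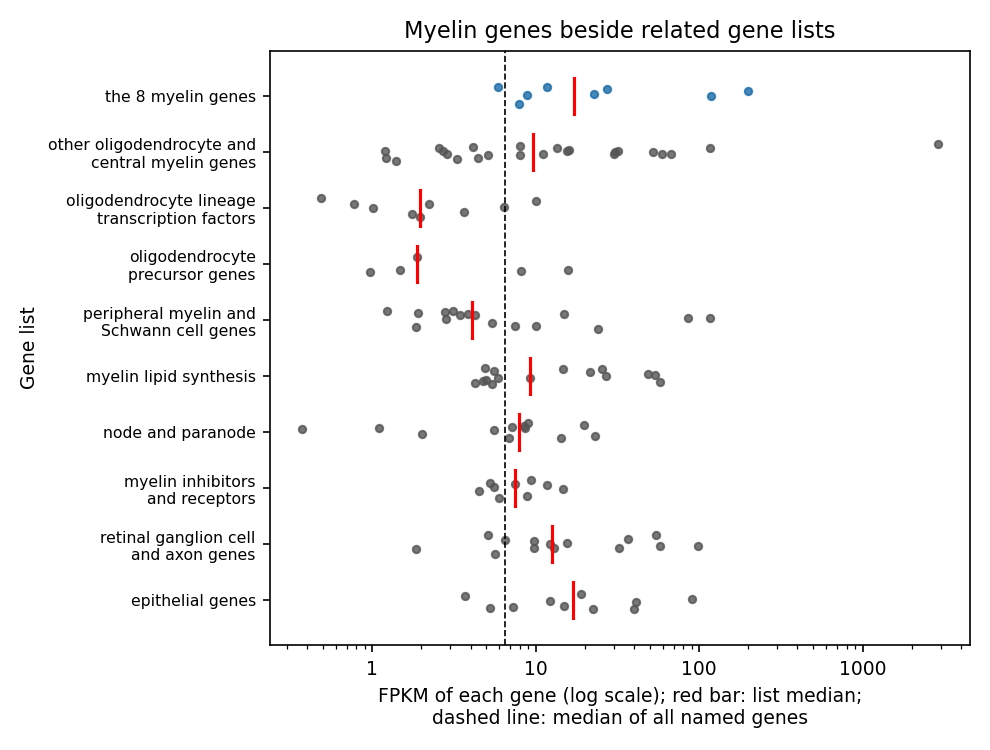
FPKM (log scale) of each named gene in the 8 myelin genes and 9 related lists, 1 point per gene, with list medians as red bars and the median of all named genes as a dashed line. The lineage transcription factors and the precursor genes have their medians to the left of the dashed line, as do the peripheral genes, and the 8 myelin genes have their median to its right (17.3 FPKM).

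Myelin is rich in cholesterol and galactolipids, and genes that make them were measured in the same pool. Of 18 symbols, 2 of which name the same transcript, 15 genes were found, with a median of 9.22 FPKM. All 15 were at 1 FPKM or more and 7 at 10 FPKM or more, against 93.2% and 34.0% of all named genes. The highest were the glycolipid transfer protein Gltp (57.8 FPKM), the desaturase Scd2 (53.8 FPKM) and Degs1 of ceramide synthesis (48.9 FPKM), which act in many cell types. Others are best known from myelin. Ugt8a, which makes galactosylceramide, was at 5.54 FPKM, Aspa, the aspartoacylase of oligodendrocytes, at 5.39 FPKM, and Fa2h, a fatty acid hydroxylase, at 4.88 FPKM on a transcript that also carried the symbol FAAH. These levels, each on 1 transcript, were close to that of Cnp as a sum of 2 transcripts. They were above Cnp with its highest transcript alone (3.99 FPKM).

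Genes of the axon that myelin surrounds were also present. In the list of the node of Ranvier, the gap in the sheath where sodium channels cluster, 12 of 17 symbols were named. Of these, 11 were at 1 FPKM or more and 3 at 10 FPKM or more, against 93.2% and 34.0% of all named genes. Their median was 7.86 FPKM. The adhesion molecules Nrcam, Cntnap2 and Cntn1 were highest at 23.1, 19.9 and 14.4 FPKM. Cntnap1, the axonal partner of the paranodal seal, was at 8.97 FPKM, near the level of Mag. The sodium channel Scn8a was lowest at 0.374 FPKM, on 5 fragments. The list of retinal ganglion cells and axons had 14 genes named, with a median of 12.7 FPKM. All 14 were at 1 FPKM or more and 8 at 10 FPKM or more, beside the same shares of all named genes. Nefl, the light neurofilament, was highest at 98.9 FPKM, followed by Thy1 at 57.6 FPKM and Uchl1 at 54.8 FPKM. Pou4f2 was lowest at 1.86 FPKM, on a transcript also named Pou4f3.

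Signals that act on myelinating glia had a median of 4.23 FPKM over 13 of 18 symbols. Of these 13, 11 were at 1 FPKM or more, against 93.2% of all named genes. The receptors Gpr37 (22.5 FPKM) and Axl (11.1 FPKM) and the growth factor Pdgfa (10.6 FPKM) were highest, and Lif was lowest at 0.501 FPKM. Of the other cell types, 9 of 10 astrocyte symbols were named, with a median of 14.6 FPKM. Aldoc (298 FPKM), S100b and Slc1a3 (79.8 FPKM) were highest, and Aldh1l1 was lowest at 2.89 FPKM. The 3 genes listed as astrocyte markers had a median of 7.14 FPKM. The part of other cells of the eye in the levels of the astrocyte list was not tested. In the fibroblast and vessel list, 8 of 9 were named with a median of 50.6 FPKM, led by Dcn, Col1a2 (144 FPKM) and Rgs5 (96.0 FPKM), with Cdh5 lowest at 3.91 FPKM. In the skeletal muscle list, whose tissue carries peripheral nerve, 8 of 9 were named around a median of 33.3 FPKM. Tnnc2 (174 FPKM), Mb (127 FPKM) and Acta1 (55.3 FPKM) were highest and Ttn was lowest at 7.12 FPKM.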

How the data were processed

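Nile rat eye RNA was sequenced as 1 library pooled from 5 rats, per the labels' protocols, and a single table without sample columns was deposited. Per the file headers it gives FPKM, estimated fragment counts and length for each transcript. The deposited estimated counts need not be whole, and no strand or assembly method is given in the sources used here. Bowtie was used, per the submitters' processing notes. The deposited FPKM equals fragments divided by full length and the stated 64967222 mapped fragments (all 124299 transcripts with a fragment, relative tolerance 1e-05). The listed fragments sum to 66703011, or 102.7% of that total.

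Gene names came from the deposited ortholog table: any species column for members and lists; for the 13982 background genes, the first symbol in the order mouse, rat, human. Symbols of 1 transcript counted once within a list. Nile rat RefSeq served for overlapping gene names, without coordinates. A count of 0 on 1000 nt allows 3 fragments, or 0.0462 FPKM. Intervals are gamma (levels) or delta-method (ratios) Poisson intervals. A check on simulated Poisson counts tested their calculation only, since those counts were drawn under the assumption the intervals make. Per list, counts and median are given, with the 3 highest genes and the lowest (some genes under this rule are not reported one by one but enter the counts and medians); further genes of the lineage, Schwann cell and inhibitor lists, listed cell type markers, and others added after their values were seen (Mal2, Mall, Emp2, Emp3, Cntnap1, Ugt8a, Aspa, Fa2h, Zfp57, Nf1). Members and lists were chosen with earlier results of these data known. Alternatives were other ways to combine or name transcripts, a length minimum, rescaling, pseudocount and thresholds. Values were computed in Python 3.11.15 with SciPy 1.17.1, NumPy 2.4.6 and pandas 2.3.3, and drawn with Matplotlib 3.10.9.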

Additional observations from a re-analysis of the deposited data

Results flagged for a closer look

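A signal lay in transcripts that no gene level used: those without a gene symbol held 52.8% of all listed fragments. Any part of a myelin mRNA among them is missing from the levels of the 8 genes.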

How the results depend on the processing

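Of 177 recomputed values over 40 results, 126 stayed within the main interval, or within 1.5 times the main count, 49 moved and 2 changed direction. Many of the 126 could not move. The minimum of 500 nt (39 of them) removed no member transcript, the shortest being 587 nt, so no member level or ratio could move. The 39 also hold counts of the other gene lists, which could move. Other oligodendrocyte and central myelin genes at 10 FPKM or more fell from 12 to 11. Naming by the first symbol (23 of them) changed no value. Ways to combine transcripts cannot change a gene with 1 transcript. The count of 126 is therefore no measure of stability. The ratio of Omg to Mag turned from 0.40 to -0.55 on the log2 scale with the highest transcript and to -0.60 with a length-weighted mean, since both settings lower the 2-transcript gene Omg and leave Mag as it is.

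With the highest transcript, levels were 108 (Mbp), 20.8 (Mobp), 6.03 (Omg) and 3.99 FPKM (Cnp). Log2 ratios to Mbp were then -3.62 (Mag), -4.76 (Cnp), 0.89 (Mal), -4.17 (Omg) and -1.98 (Pmp22). Log2 ratios of Pmp22 were 0.40 to Mobp, 2.19 to Omg and 1.80 to the median central gene, Mobp to Omg was 1.79 and Mog to Cnp 0.99. Inhibitor and receptor genes at 10 FPKM or more fell from 2 to 1, since Omg dropped out.

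With a length-weighted mean, levels were 41.4 (Mbp), 18.2 (Mobp), 5.83 (Omg) and 2.60 FPKM (Cnp). Log2 ratios to Mbp were -2.39 (Mog), -2.23 (Mag), -3.99 (Cnp), -1.18 (Mobp), 2.27 (Mal), -2.83 (Omg) and -0.59 (Pmp22). Log2 ratios of Pmp22 were 0.59 to Mobp, 2.24 to Omg and 1.80 to the median central gene, Mobp to Omg was 1.64 and Mog to Cnp 1.60.

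Without transcripts whose symbols differ between species, Cnp was at 1.94 FPKM, with log2 ratios of -5.93 to Mbp and 2.03 for Mog to Cnp. A pseudocount of 1 FPKM gave log2 ratios to Mbp of -3.60 (Mag), -4.10 (Cnp), -2.32 (Mobp) and -3.23 (Omg). Rescaling to a sum of 1000000 lowered all levels alike, to 86.1 (Mbp), 5.76 (Mog), 6.44 (Mag), 4.32 (Cnp), 16.7 (Mobp), 146 (Mal), 8.52 (Omg) and 20.03 FPKM (Pmp22). The members' share of named FPKM was 0.183% as fragments, 0.184% over transcripts of at least 500 nt and 0.0823% without Mal, an alternative chosen after the data were seen.

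No paired analysis was possible because the table holds no column per sample, and leaving out a sample was not run for the same reason. Counting error is largest for Mog, whose interval spans 11.5% of its level to either side.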
